A study of Mus musculus with 24 samples.

Results

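The 48 genes described here code for proteins of the lysosome and of autophagy, and they were chosen by name out of the 55357 genes of the count table. Their symbols were matched to the table through the Ensembl gene identifiers. All 48 had enough counts to be tested, among 14985 tested genes. The genes comprise 3 transcription factors of the TFEB family, 4 lysosomal membrane proteins, 8 cysteine proteases, 4 other proteases, 9 glycosidases and sulfatases, 5 genes of lipid handling, progranulin, 5 subunits of the vacuolar proton pump, 7 genes of the autophagy machinery and 2 autophagy receptors.

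Macrophages were grown from bone marrow of C57BL/6J mice, wild-type and aged 8 to 12 weeks, in medium whose macrophage growth factor (M-CSF) came from supernatant of L929 cells. They were left untreated, given 100 nM dexamethasone (a synthetic glucocorticoid), given 100 ng LPS (bacterial lipopolysaccharide, an activator of Toll-like receptor 4, in a volume the labels do not state), or given both agents. Each treatment was sampled at 4 h and at 24 h, with 3 RNA-seq libraries in each of the 8 groups. Whether the 3 libraries of a group came from separate mice or cultures is not stated, so a p-value here reflects only how these libraries vary, which may be technical. The study asked how the anti-inflammatory action of glucocorticoids in LPS-treated macrophages depends on time.

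Lysosomes are acidic compartments in which hydrolases break down material taken up from outside or delivered by autophagy, and macrophages, as phagocytes, are rich in them. The vacuolar proton pump (V-ATPase) acidifies the lumen, and cathepsins, glycosidases and lipid hydrolases cleave the cargo. TFEB, TFE3 and MITF are related basic helix-loop-helix transcription factors that bind the sequence CACGTG and its extended forms, and that activate many lysosomal and autophagy genes when they enter the nucleus.

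Library totals ran from 18326206 to 27908164 counts. Levels are given as CPM, counts scaled to a common library size after TMM scaling (a factor that corrects for a few abundant genes taking much of a library). Macrophage genes were abundant in every group: Lyz2 had group means of 11108 to 39727 CPM and Csf1r, the M-CSF receptor, of 2294 to 3516 CPM. The 8 lymphocyte markers summed to at most 3.63 CPM in any library and none of them had enough counts to be tested. Markers of neutrophils summed to between 8.57 and 175 CPM per library, and of mast cells and basophils to between 0.229 and 11.6 CPM. The neutrophil markers differed between groups. S100a9 stood at 15.4 to 22.5 CPM in untreated cells at 4 h, 0.906 to 1.12 CPM at 24 h and 49.8 to 71.7 CPM with LPS at 4 h. Mmp8 stood at 5.44 to 8.42 CPM in untreated cells and 117 to 142 CPM with dexamethasone at 24 h. Summed markers of dendritic cells moved with the groups, from 23.8 to 34.95 CPM in untreated cells at 4 h to 122 to 172 CPM at 24 h, against 18.99 to 23.4 CPM with dexamethasone and 14.7 to 17.9 CPM with LPS at 24 h. Of these sums Itgax, which macrophages can also express, held a mean of 149 CPM in untreated cells at 24 h, 11.4 with dexamethasone and 11.04 with LPS, while the dendritic cell genes Zbtb46 and Clec9a were at 0.144 and 0.611 CPM in untreated cells at 24 h. Those of stromal and endothelial cells stood at 14.5 to 21.04 CPM in untreated cells and 139.7 to 186 CPM with LPS at 4 h, with Kdr at 120.2 and Pdgfrb at 40.9 CPM and the collagen genes Col1a1 and Col3a1 at 0.0208 and 0 CPM. With TMM scaling the summed stress genes were higher with LPS at 4 h (809 to 936 against 569.8 to 612 CPM) and lower with it at 24 h (347 to 389.6 against 655 to 774 CPM). With dexamethasone they were lower in each comparison, for example 283 to 302 CPM with dexamethasone alone at 24 h and 338 to 352 CPM with both agents at 4 h. The sums are given with TMM scaling only, and the genes in them did not move together. With LPS at 4 h Atf3 was higher (607 to 716 against 193 to 221 CPM) and Fos lower (44.1 to 49.7 against 196 to 212 CPM). With both agents at 4 h Atf3 was lower than with LPS (115 to 127 CPM) and Hspa1b higher (32.6 to 38.0 against 11.1 to 18.4 CPM). The part of such cells, or of stress, in the levels below was not tested. In these bulk libraries fewer cells of a type and less RNA per cell cannot be told apart.

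The sequence bound by the TFEB family was searched in RefSeq promoter windows of the mouse assembly GRCm38.p6, each running from 250 bases before to 50 bases after a transcription start, on both strands. CACGTG reads the same on both strands, and TCACGTG is the same motif with a T in front of it, so every TCACGTG is also counted as CACGTG. Of the 48 genes, 39 had a window, and a gene was counted if any of its windows held the motif. In Ctsa and Lgmn only the second of 2 windows, each at its own start, held it. For Ctsa that second window is the one printed below. CACGTG was found in 14 of the 39 (35.9%), against 8.09% of all 27025 genes with a window and 11.6% of the 10290 tested genes with one. TCACGTG was found in 12 of the 39 (30.8%), against 4.29% and 6.94%. The 6 promoters below are shown because they carry the motif most often (Lamp1, with 4, and Mcoln1, Ctsa, Ctsd and Gla, with 2 each, of which the second of Ctsa lies after the start and is not printed) or because the gene had the largest fall under LPS at 4 h (Sgsh, with 1). The 250 bases before the start are given 5′ to 3′ on the strand of the gene, with capitals for CACGTG and for a T before it or an A after it.
Lamp1, chr8:13158911-13159160, plus strand: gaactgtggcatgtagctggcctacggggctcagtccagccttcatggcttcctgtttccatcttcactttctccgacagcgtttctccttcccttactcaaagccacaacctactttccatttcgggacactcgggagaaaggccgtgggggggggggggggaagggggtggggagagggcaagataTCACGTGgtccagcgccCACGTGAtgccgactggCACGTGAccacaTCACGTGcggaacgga
Mcoln1, chr8:3500269-3500518, plus strand: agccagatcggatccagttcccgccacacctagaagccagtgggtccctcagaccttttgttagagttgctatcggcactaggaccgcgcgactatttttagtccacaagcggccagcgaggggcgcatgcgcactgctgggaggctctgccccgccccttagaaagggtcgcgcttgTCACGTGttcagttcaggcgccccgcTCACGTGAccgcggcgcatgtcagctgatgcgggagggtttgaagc
Ctsa, chr2:164833523-164833772, plus strand: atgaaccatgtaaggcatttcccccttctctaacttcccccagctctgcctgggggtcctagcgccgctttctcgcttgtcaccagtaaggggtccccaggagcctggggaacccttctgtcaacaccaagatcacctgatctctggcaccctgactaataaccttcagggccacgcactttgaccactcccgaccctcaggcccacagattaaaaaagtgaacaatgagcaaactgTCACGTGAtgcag
Ctsd, chr7:142387828-142388077, minus strand: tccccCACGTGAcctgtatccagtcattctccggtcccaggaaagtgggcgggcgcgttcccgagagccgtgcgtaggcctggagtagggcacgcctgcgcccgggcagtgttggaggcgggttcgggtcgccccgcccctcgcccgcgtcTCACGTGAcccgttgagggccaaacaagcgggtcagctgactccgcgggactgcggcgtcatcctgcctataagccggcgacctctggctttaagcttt
Gla, chrX:134601006-134601255, minus strand: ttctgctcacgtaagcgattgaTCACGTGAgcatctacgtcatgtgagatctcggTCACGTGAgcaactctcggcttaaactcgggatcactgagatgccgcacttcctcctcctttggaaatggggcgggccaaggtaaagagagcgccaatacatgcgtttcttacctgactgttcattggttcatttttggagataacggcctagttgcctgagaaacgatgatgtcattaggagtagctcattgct
Sgsh, chr11:119355511-119355760, minus strand: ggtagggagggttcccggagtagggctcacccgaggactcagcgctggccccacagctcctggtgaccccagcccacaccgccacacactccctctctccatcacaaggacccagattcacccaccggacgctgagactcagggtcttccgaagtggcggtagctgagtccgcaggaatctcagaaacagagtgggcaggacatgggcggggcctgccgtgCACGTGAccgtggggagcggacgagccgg

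In Lamp1 the 4 motifs lay within the last 61 bases before the start, and in Mcoln1 the 2 motifs began 71 and 45 bases before it. In Gla they began 227 and 194 bases before the start and in Ctsd 245 and 98 bases before it. A match is a string of letters in these windows, and no binding was measured. The 14 genes with the motif had a median log2 fold change of -0.29 under LPS at 4 h, with 1 higher and 9 lower, and the 25 without it had a median of -0.14, with 10 higher and 13 lower. Of all tested genes 34.2% were higher and 38.8% lower. Scaling by library size only moves both medians by -0.77. It turns the sign of the rise with the motif, that of Lamp1, and without it of those of Tfe3, Lamp2, Ctss and Grn. At 24 h the medians were -0.47 with the motif (2 higher, 11 lower) and -0.32 without it (9 and 15). Of all tested genes 29.7% were then higher and 30.6% lower. The split was not tested.

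In untreated cells the 48 genes together held 4.27% of all counts at 4 h and 6.32% at 24 h. Their summed level was 36325 ± 573 CPM at 4 h (mean ± SD, n = 3, as for all levels below) and 55817 ± 346 CPM at 24 h. With LPS at 24 h the sum was 35844 ± 449 CPM, 3.53% of the counts, and with dexamethasone and LPS it was 29410 ± 684 CPM, 2.97% of the counts. All 3 libraries of both LPS groups at 24 h lay below all untreated and dexamethasone-only libraries of that time. At 4 h the order of LPS-treated and untreated cells turned with the scale. The sum was 41014 ± 2023 CPM with LPS, above untreated cells, while the share of counts was 2.83%, below them. Of the summed level, 5 genes held 53.7 to 70.1%: Ctsb, Psap, Ctss, Ctsd and Grn.

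**Figure D1:**
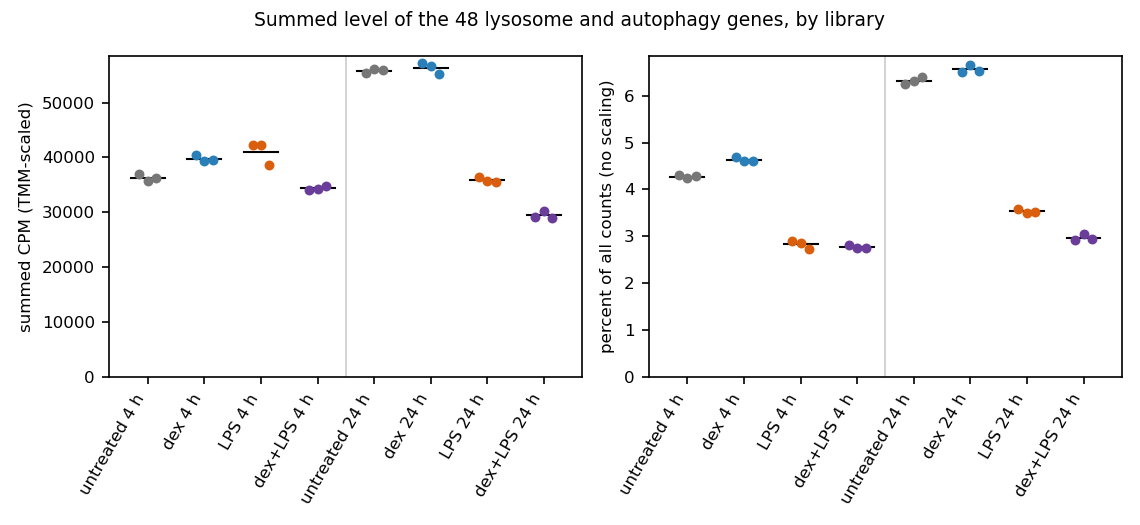
Summed level of the 48 genes in each library, in TMM-scaled CPM (left) and as a percent of all counts with no further scaling (right); points are the 3 libraries of a group and the line is their mean. At 24 h the 6 libraries with LPS lie below the 6 without it on both scales, whereas at 4 h the LPS libraries lie above the untreated ones on the left and below them on the right.

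The genes differed widely in how far they moved. The ratio of the highest to the lowest group mean had a median of 3.03 over the 48 genes, was under 2 for 10 of them, between 2 and 4 for 23 and 4 or more for 15. It was highest for Atp6v0d2 (100-fold), Sgsh (41.0-fold), Optn (19.2-fold), Ctsc (15.4-fold) and Tfeb (15.2-fold). The steadiest were Atp6v0d1, a subunit of the proton pump, at 1.24-fold, and Glb1, the beta-galactosidase, at 1.25-fold. Of the 48 genes, 13 had their highest mean in untreated cells at 24 h and 13 in dexamethasone-treated cells at 24 h. Neither the ratios nor these counts were computed over all tested genes.

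**Figure D2:**
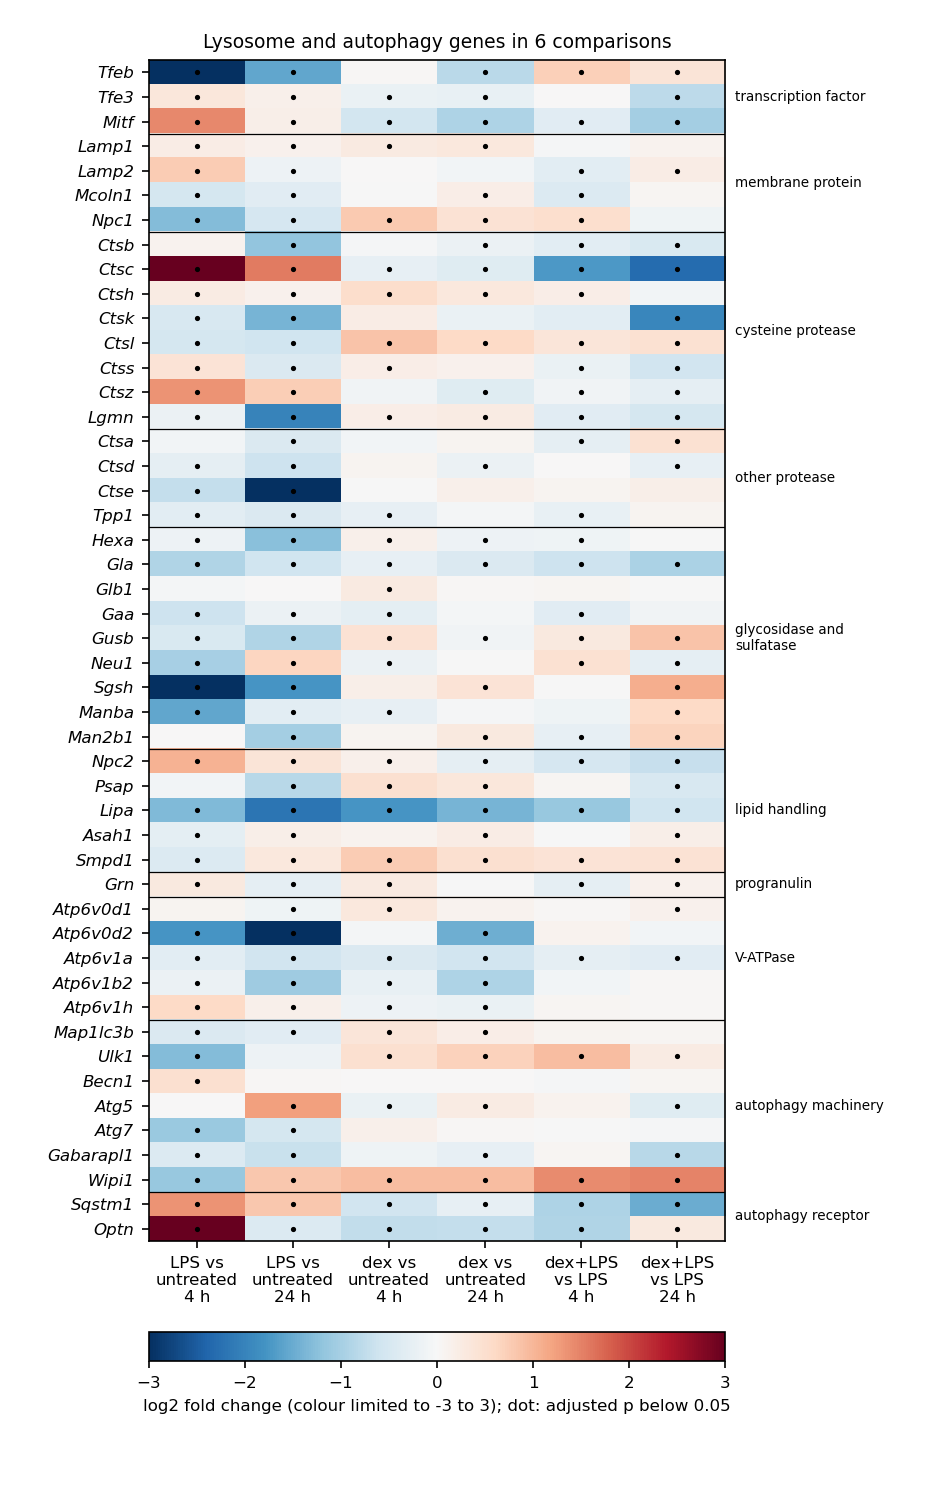
Log2 fold change of the 48 genes (rows, grouped by role) in 6 comparisons (columns); red is higher and blue lower in the group named first, and a dot marks an adjusted p below 0.05. Ctsc and Optn stand out as red and Tfeb and Sgsh as blue under LPS at 4 h, and Lipa is blue in all 6 columns. Scaling by library size only turns the sign of 8 of the 14 called rises of the first column and 6 of the 14 of the second, named in the text. Lamp2 in the first column and all 6 of the second are then not called as falls.

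The first comparison asked what LPS alone did at 4 h. The 3 TFEB family genes moved apart, Mitf rising while Tfeb fell more than any of the 48 genes but Sgsh. With TMM scaling both autophagy receptor genes and the gene of cathepsin C rose more than 2-fold, and the sulfatase gene Sgsh fell to a few CPM. Of the 48 genes, 14 were higher, 27 lower and 7 not called at an adjusted p below 0.05 in the quasi-likelihood test of edgeR, adjusted by Benjamini-Hochberg over all genes tested. Of all tested genes 34.2% were called higher and 38.8% lower. The median log2 fold change was -0.22 over the 48 genes and -0.07 over all genes. Scaling by library size only shifts every log2 fold change here by -0.77. Of the 14 rises, Tfe3, Lamp1, Ctsh, Ctss, Grn, Atp6v1h and Becn1 then turn into falls, and Lamp2 changes sign and loses its call. The rises of Mitf, Ctsc, Ctsz, Npc2, Sqstm1 and Optn remain, and the 27 falls are all called. Of all tested genes 2434 are then higher and 9779 lower. With TMM scaling the falls of Lgmn and Hexa lost their call without LPS library 3 (adjusted p = 0.173 and 0.108). Both also lost it with RLE size factors and with DESeq2, alternatives named at the end.

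Among the transcription factors, Tfeb (chr17:48047955-48103344 in the coordinates of the count table, taken as GRCm39) stood at 52.9, 62.3 and 52.02 CPM in the untreated libraries and at 6.12, 3.31 and 7.94 CPM with LPS. The groups did not overlap and the difference was called (a log2 fold change of -3.27 ± 0.17, adjusted p = 3.9e-14, where ± gives the standard error, as for every log2 value below). Mitf went from 83.5, 83.9 and 77.6 to 215, 224 and 231 CPM (a log2 fold change of 1.45 ± 0.06, adjusted p = 6.4e-22). With TMM scaling all LPS libraries were thus more than 2-fold above the untreated ones for Mitf, whose product is best known from pigment cells and osteoclasts. By library size they were above them by less than 2-fold (147 to 163 against 91.5 to 99.3 CPM). Tfe3 stood at 149, 137 and 154 CPM without and 179.9, 188 and 191 CPM with LPS (a log2 fold change of 0.34 ± 0.05, adjusted p = 6.1e-07), but at -0.43 when scaled by library size only. In LPS-treated cells at 4 h Mitf and Tfe3 therefore had far more counts than Tfeb, per base of exon as well as in all: the 3 genes had mean CPM per kb of exon of 36.03 (Mitf), 20.1 (Tfe3) and 1.02 (Tfeb).

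Of the membrane proteins, Npc1, which exports cholesterol from the lysosome, went from 261, 233 and 251 to 106, 103 and 92.4 CPM (a log2 fold change of -1.31 ± 0.06, adjusted p = 1.6e-20). Mcoln1, the calcium channel TRPML1, was also lower (-0.53 ± 0.06, adjusted p = 1.8e-09). Lamp1 and Lamp2 code for the main coat proteins of the lysosomal membrane. Lamp1 stood at 1434, 1335 and 1446 CPM in untreated cells and 1674, 1664 and 1562 CPM with LPS. The 2 genes were called higher by 0.22 and 0.77 on the log2 scale, and stood at -0.55 and at 0 within 0.0035 when scaled by library size only.

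Of the 8 cysteine proteases 4 were higher and 3 lower, and of the 4 those of Ctsh and Ctss turned by library size. Ctsc, cathepsin C, which activates the serine proteases of granules, stood at 386, 358 and 378 CPM in untreated cells and 3161, 3038 and 3139.9 CPM with LPS (a log2 fold change of 3.06 ± 0.07, adjusted p = 7.3e-27). Ctsz, cathepsin Z, a carboxypeptidase, went from 559, 543 and 561 to 1413, 1417 and 1373 CPM (a log2 fold change of 1.34 ± 0.05, adjusted p = 4.9e-25). No LPS library of either gene overlapped an untreated one. Ctsl, cathepsin L, fell from 1384 ± 19.5 to 964 ± 43.5 CPM (a log2 fold change of -0.52 ± 0.07, adjusted p = 1.2e-08). Of the protease Ctsk, known from bone resorption, the level was 4.90 ± 0.841 and 3.54 ± 0.533 CPM, and its call (adjusted p = 0.0065) was lost without untreated library 1 (adjusted p = 0.0807) or LPS library 1 (adjusted p = 0.0627). Ctsb, the most abundant of the 48 in both groups, was not called (0.10 ± 0.05, adjusted p = 0.073). Of the other proteases, Ctsd, the aspartic protease cathepsin D, went from 2979, 2887 and 2857 to 2603, 2455 and 2178 CPM (-0.27 ± 0.05, adjusted p = 2.4e-05). Ctse and Tpp1 were lower as well, and Ctsa was not called. The exons of Ctsd, Ctsl and Ctsb share 34.4, 26.9 and 12.8% of their bases with other genes, where reads were not counted, so their levels leave out those stretches.

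Of the 9 glycosidases and sulfatases 7 were lower and none higher. Sgsh, the sulfamidase of heparan sulfate breakdown (chr11:119234251-119246362), went from 42.2, 40.3 and 47.7 to 2.09, 2.45 and 1.44 CPM (a log2 fold change of -4.43 ± 0.12, adjusted p = 1.3e-27). Its exons share 21.6% of their bases with Card14, and reads on that stretch were not counted. Manba, the beta-mannosidase, went from 64.5, 62.8 and 68.03 to 22.7, 23.3 and 20.2 CPM (a log2 fold change of -1.56 ± 0.07, adjusted p = 1.7e-21). Neu1, a sialidase, fell by 0.99 and Gla, the alpha-galactosidase, fell by 0.90 on the log2 scale. Of lipid handling, Lipa, the acid lipase that frees cholesterol from its esters, fell from 1516, 1539.6 and 1392 to 688, 527 and 563 CPM (a log2 fold change of -1.32 ± 0.08, adjusted p = 2.7e-15), whereas Npc2, the soluble cholesterol carrier, rose from 890.2 ± 9.33 to 1819.6 ± 54.2 CPM (a log2 fold change of 1.03 ± 0.05, adjusted p = 2.0e-20).

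Of the proton pump 3 of 5 subunit genes were lower and 1, Atp6v1h, was higher with a call that turned by library size. Atp6v0d2 stood at 46.5, 49.3 and 40.8 CPM in untreated cells and 15.4, 13.4 and 11.1 CPM with LPS (a log2 fold change of -1.77 ± 0.18, adjusted p = 5.0e-08). Grn codes for progranulin, a secreted protein that is cut into granulins in the lysosome. It stood at 1900.5, 1781 and 1865 and 2257, 2365 and 2212 CPM (0.30 ± 0.04, adjusted p = 1.4e-07), but at -0.47 by library size.

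In the autophagy machinery 5 of 7 genes were lower and 1, Becn1, was higher with a call that turned by library size. Ulk1, the kinase that starts autophagy, stood at 29.03, 34.2 and 34.8 CPM in untreated cells and 12.1, 14.8 and 12.6 CPM with LPS (a log2 fold change of -1.31 ± 0.08, adjusted p = 1.6e-16). Wipi1, a phosphoinositide-binding protein of the forming autophagosome, stood at 16.3, 13.9 and 17.7 and 6.59, 7.76 and 7.44 CPM (a log2 fold change of -1.14 ± 0.11, adjusted p = 3.7e-12). Atg7, the E1-like enzyme of lipidation, was at -1.12 on the log2 scale. Sqstm1 and Optn, whose products are receptors that tie cargo to the autophagosome, went the other way. The other autophagy receptor genes did not all go this way. Of 12 such genes, 2 were higher and 9 lower with LPS at 4 h by library size, against 2434 and 9779 of the 14985 tested genes. Their counts with TMM scaling are given further below. Sqstm1, which codes for p62, rose from 426, 425 and 429 to 1124, 1173 and 978 CPM (a log2 fold change of 1.36 ± 0.07, adjusted p = 2.0e-19) and Optn, optineurin, from 10.3, 11.8 and 10.9 to 123, 126 and 125 CPM (a log2 fold change of 3.52 ± 0.08, adjusted p = 1.4e-29). With TMM scaling every LPS library was more than 2-fold above every untreated library for both receptors. By library size this held for Optn (84.6 to 88.2 against 12.0 to 13.9 CPM) but not for Sqstm1 (689.5 to 796 against 496 to 506 CPM). The exons of Sqstm1 share 17.3% of their bases with Mrnip and those of Becn1 43.9% with Cntd1.

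**Figure D3:**
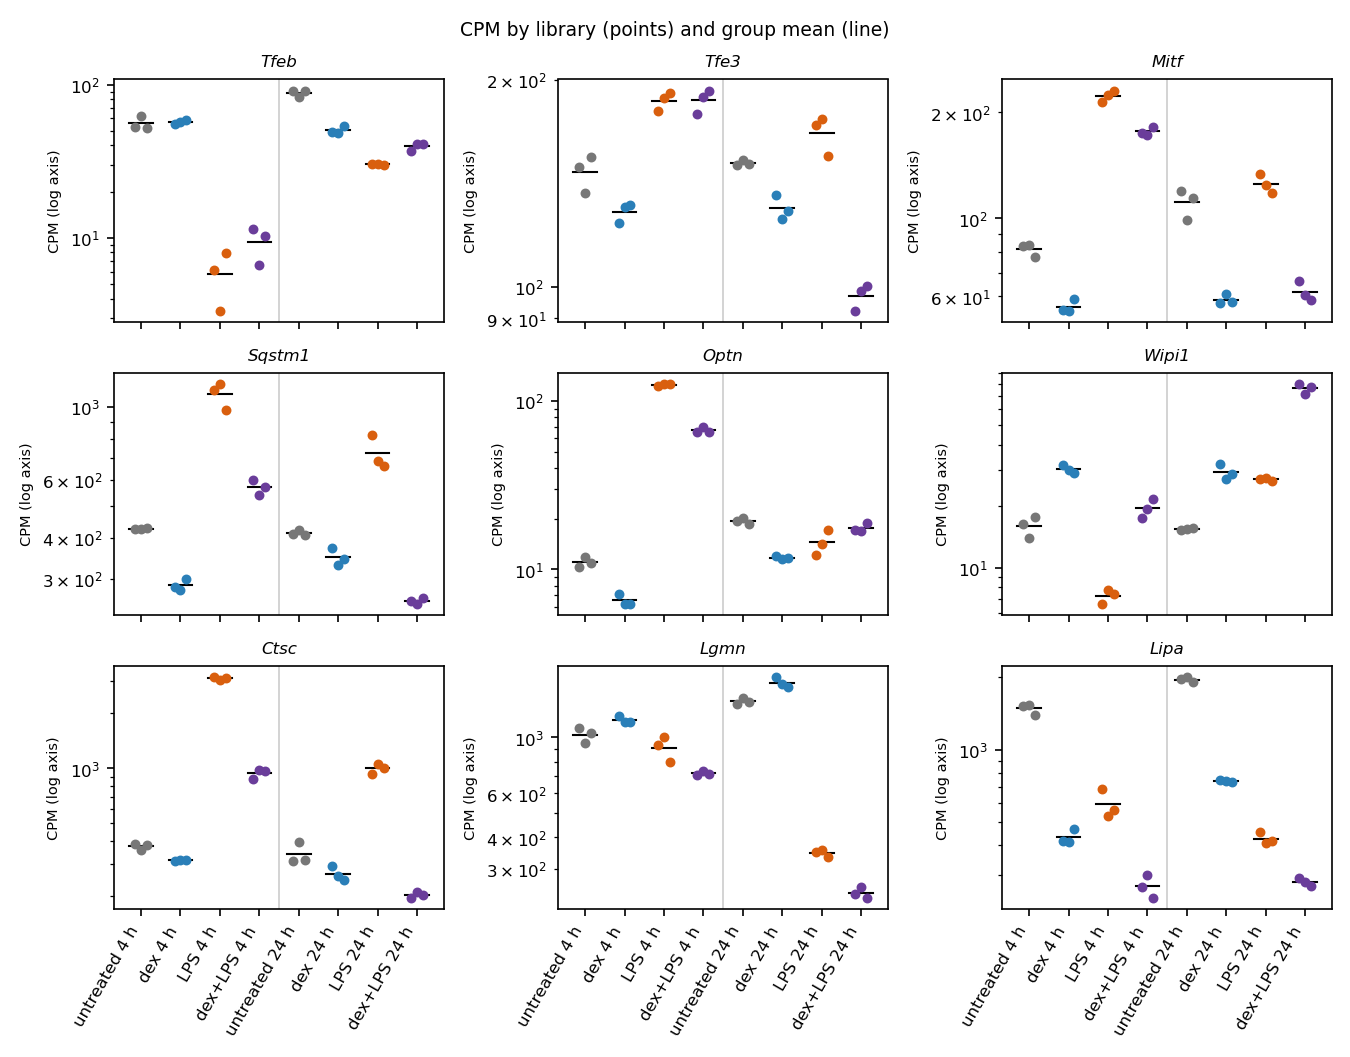
CPM in each of the 24 libraries (points, log axes that differ between panels) with group means (lines) for 9 of the genes. Tfeb is lowest in the LPS groups of 4 h, Sqstm1 and Optn are highest with LPS at 4 h, Wipi1 is highest with both agents at 24 h, and Lipa is below its untreated level in every treated group.

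At 24 h the same question gave 14 genes higher, 31 lower and 3 not called, against 29.7% higher and 30.6% lower of all tested genes. The median log2 fold change was -0.38 over the 48 genes and -0.02 over all genes. The subunit gene Atp6v0d2, the proteases Lgmn, Ctsk and Ctsb and the lipase Lipa were far lower with LPS, while Ctsc, Atg5, Wipi1 and Sqstm1 were higher. Library-size scaling shifts this comparison by -0.20 and turns the sign of the small rises of Tfe3, Mitf, Lamp1, Ctsh, Asah1 and Atp6v1h. None of these is then called lower, and Smpd1 loses its call. Of these rises, 5 were also lost when 1 library of 24 h was left out. Tfe3 lost its call without untreated library 1 or 3 or LPS library 1 or 2 (adjusted p up to 0.118), and Mitf without untreated library 2 (adjusted p = 0.183) or LPS library 1 (adjusted p = 0.101). Lamp1 lost it without untreated library 1 or 3 or LPS library 2 or 3 (adjusted p up to 0.132), and Ctsh without untreated library 1 or 3 or any 1 LPS library (adjusted p up to 0.208). Atp6v1h lost it without untreated library 2 (adjusted p = 0.113).

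Tfeb remained below its untreated level at 24 h, at 30.3, 30.1 and 29.8 against 91.3, 82.4 and 90.6 CPM (a log2 fold change of -1.55 ± 0.13, adjusted p = 4.8e-10). The fall was smaller than at 4 h: the difference between the 2 LPS effects was 1.72 ± 0.22 on the log2 scale (adjusted p = 3.6e-07). Of the proteases, Lgmn, the asparaginyl endopeptidase legumain, stood at 1357, 1428 and 1382 CPM without and 349, 357 and 335 CPM with LPS (a log2 fold change of -2.002 ± 0.06, adjusted p = 1.3e-25). Ctsb, cathepsin B, was at 13469, 13798 and 13668 and 6039.8, 5916 and 6111 CPM (a log2 fold change of -1.18 ± 0.05, adjusted p = 1.0e-21). For both proteases the LPS libraries lay at less than 1 in 2 of any untreated library. Ctsk was at 20.2, 18.9 and 18.1 and 8.08, 6.98 and 6.55 CPM (a log2 fold change of -1.40 ± 0.13, adjusted p = 5.4e-12). Ctse, cathepsin E, was near the limit of detection, at 3.91 ± 0.421 and 0.497 ± 0.161 CPM (-2.98 ± 0.31, adjusted p = 1.2e-10). Ctsc was still higher, at 937, 1056 and 1003 against 312, 393 and 313 CPM (a log2 fold change of 1.56 ± 0.07, adjusted p = 5.5e-19), as was Ctsz (0.73 ± 0.04, adjusted p = 7.9e-17).

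Of the glycosidases and sulfatases 7 of 9 were lower and 1, Neu1, was higher. Sgsh stood at 58.9, 66.1 and 59.5 CPM in untreated cells and 16.8, 18.1 and 19.1 CPM with LPS (a log2 fold change of -1.77 ± 0.08, adjusted p = 5.3e-20). Hexa, the alpha subunit of hexosaminidase, and Man2b1, the alpha-mannosidase, were at -1.24 and -1.02 on the log2 scale. Lipa was at 455, 408 and 417 against 1958, 2001 and 1908 CPM (a log2 fold change of -2.20 ± 0.08, adjusted p = 6.3e-20), and Psap, the precursor of the saposins that help hydrolases act on sphingolipids, at 7478 ± 319 against 13362 ± 221 CPM (-0.84 ± 0.05, adjusted p = 2.1e-17). Lipid handling as a group was split, since Npc2, Asah1 and Smpd1 were called higher, the last 2 with a call that was lost under library-size scaling. Of the autophagy genes, Atg5, part of the conjugate that lipidates LC3, was higher, at 90.4, 94.3 and 101 against 40.6, 41.7 and 39.7 CPM (a log2 fold change of 1.23 ± 0.07, adjusted p = 2.4e-18). Sqstm1 was at 823, 682 and 660.1 against 410.1, 422 and 407 CPM (a log2 fold change of 0.81 ± 0.06, adjusted p = 4.7e-13).

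The 2 forms of the d subunit of the proton pump behaved differently under LPS. Atp6v0d1, the widely expressed form, stood at 89.6 to 95.7 CPM per kb of exon in untreated cells at 24 h and at 80.9 to 89.5 with LPS. Atp6v0d2 (chr4:19876841-19922605), the form known from osteoclasts and kidney, stood at 102 to 119.8 CPM per kb in untreated cells and at 0.671 to 1.82 with LPS. Per length Atp6v0d2 was thus slightly above Atp6v0d1 in all 3 untreated libraries at 24 h, and far below it in all 3 with LPS. In CPM the Atp6v0d2 libraries were 325, 278 and 325 without and 4.96, 1.82 and 2.93 with LPS (a log2 fold change of -6.55 ± 0.21, adjusted p = 1.8e-15), and the log2 fold change was -1.77 at 4 h, a difference between the times of -4.78 ± 0.29 (adjusted p = 5.3e-11). Atp6v1b2 and Atp6v1a, subunits of the part that splits ATP, fell by 1.06 and 0.57 on the log2 scale.

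Since Atp6v0d2 and Ctsk are also markers of osteoclasts, the 8 other osteoclast markers are given beside them. Of these 7 were tested and, with LPS at 24 h, 3 were higher and 4 lower. Their summed level was 116 to 139 CPM in untreated libraries and 114 to 130.3 CPM with LPS. Calcr, the calcitonin receptor, and Oscar, both defining markers, had mean levels of 0.0149 and 0.0578 CPM in untreated cells and 0.380 and 0.0815 CPM with LPS. Dcstamp, a fusion protein of osteoclasts, had 41.9 CPM in untreated cells, 0.256 CPM with LPS and 0.226 CPM with dexamethasone alone. Acp5, the tartrate-resistant phosphatase, had 4.82, 74.9 and 28.8 CPM in the same groups. The summed dendritic cell markers stood at 122 to 172 CPM in untreated cells and 14.7 to 17.9 CPM with LPS. The part of either kind of cell in the change of Atp6v0d2 and Ctsk was not tested.

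**Figure D4:**
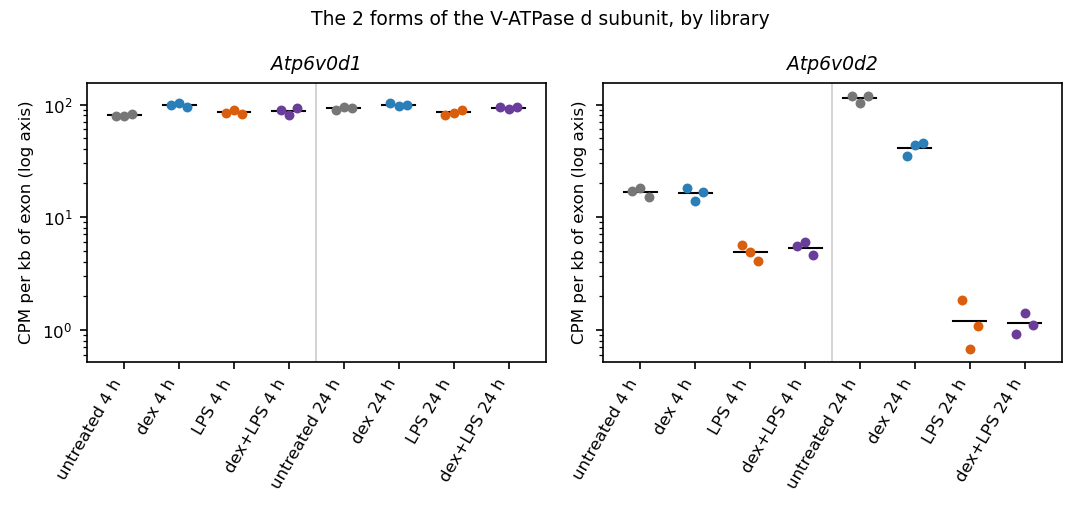
CPM per kb of exon (log axis) of the 2 forms of the V-ATPase d subunit in each library (points) with group means (lines). Atp6v0d1 stays between 78.9 and 104 in all 24 libraries, while Atp6v0d2 ranges from 0.671 in an LPS library to 120 in an untreated library, both of 24 h.

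The 48 genes were compared between the 2 times, which share no libraries. Of the 14 genes higher with LPS at 4 h and the 14 at 24 h, 9 were the same (64.3% of each list, against 54.5% and 62.6% over all tested genes). By library size 4 were, namely Ctsc, Ctsz, Npc2 and Sqstm1, out of lists of 6 and 7. That is 66.7% and 57.1% of the lists, against 57% and 45% over all tested genes. Of the 27 lower at 4 h and the 31 at 24 h, 22 were the same (81.5% and 71% of the lists, against 49.8% and 63% over all tested genes). By library size 32 were, out of 41 and 34, which is 78% and 94.1%, against 53.9% and 83.9% over all tested genes. With TMM scaling another 8 were called in opposite directions, namely Lamp2, Ctss, Neu1, Asah1, Smpd1, Grn, Wipi1 and Optn. The share of opposite calls over all tested genes was not computed, here or for the dexamethasone effects below. Tested directly, the LPS effect was higher at 24 h than at 4 h for 13 genes and lower for 28, against 30.8% and 30.5% of all tested genes. Library-size scaling adds 0.57 to this difference and gives 26 higher and 14 lower, against 7692 and 2573 of all tested genes. The opposite calls that rest on the largest differences were those of Optn, at 12.2, 14.1 and 17.2 CPM with LPS and 19.4, 20.1 and 18.4 without at 24 h (difference -3.93 ± 0.12, adjusted p = 2.1e-25), and Wipi1, at 27.2, 27.5 and 26.6 and 15.2, 15.5 and 15.6 CPM (1.95 ± 0.14, adjusted p = 5.5e-15). Neu1 had the next largest, from 37.0 to 38.7 CPM in the LPS libraries of 4 h to 153 to 162 CPM in those of 24 h (difference 1.62 ± 0.08).

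The next comparisons asked what dexamethasone did without LPS. At 4 h its largest effect among the 48 genes was the fall of Lipa, and Wipi1, Ctsl, Npc1 and Smpd1 were the most raised. Of the 48, 17 were higher, 15 lower and 16 not called, against 17.6% and 23.7% of all tested genes. At 24 h 15 were higher, 19 lower and 14 not called, against 21.9% and 26.5%. The medians were 0.02 at 4 h and -0.02 at 24 h, against -0.04 and 0.00 over all genes. Lipa at 4 h, and Lipa and Atp6v0d2 at 24 h, had log2 fold changes beyond -1.

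Lipa stood at 1516, 1539.6 and 1392 CPM without and 418, 412 and 467 CPM with dexamethasone at 4 h (a log2 fold change of -1.78 ± 0.08, adjusted p = 2.4e-17), and at 1958, 2001 and 1908 and 749, 741 and 735 CPM at 24 h (a log2 fold change of -1.40 ± 0.08, adjusted p = 3.4e-15). The dexamethasone libraries lay below 1 in 2 of every untreated library at both times. Smpd1, the acid sphingomyelinase, rose from 20.02 ± 0.410 to 33.8 ± 3.13 CPM at 4 h (0.76 ± 0.08, adjusted p = 7.3e-10), and Npc1 from 261, 233 and 251 to 459.8, 426 and 402 CPM (0.79 ± 0.06, adjusted p = 7.8e-14). Psap rose at both times, by 0.48 and 0.34. So the genes of lysosomal lipid breakdown and cholesterol export did not move as one: Lipa fell while Npc1, Psap and Smpd1 rose, at both times.

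Of the proteases, Ctsl rose from 1405, 1383 and 1366 to 2602, 2442 and 2440 CPM at 4 h (a log2 fold change of 0.85 ± 0.07, adjusted p = 6.4e-13) and from 775, 669 and 748 to 1161, 1102 and 1056 CPM at 24 h (a log2 fold change of 0.60 ± 0.07, adjusted p = 1.8e-09). Ctsh, cathepsin H, an aminopeptidase, was higher by 0.52 and 0.30, and Ctsc was lower (-0.25 and -0.36). Of the transcription factors, Mitf was lower at both times, at 54.7, 54.4 and 58.9 CPM at 4 h (a log2 fold change of -0.55 ± 0.06, adjusted p = 4.7e-09) and 57.5, 60.6 and 57.7 CPM at 24 h (a log2 fold change of -0.92 ± 0.06, adjusted p = 5.1e-15). Tfe3 was slightly lower at both (-0.19 and -0.22). Tfeb stood at 55.4, 56.5 and 58.6 CPM at 4 h, not called against untreated cells (0.03 ± 0.12, adjusted p = 0.88), and at 49.2, 48.01 and 53.2 CPM at 24 h, where it was called lower (-0.81 ± 0.12, adjusted p = 8.5e-06). The difference of the Tfeb effect between the times was -0.84 ± 0.17 (adjusted p = 6.6e-04).

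Of the proton pump, 3 of 5 subunit genes were lower at 4 h and 4 of 5 at 24 h. Atp6v1b2 went from 821, 720.5 and 787 to 417, 408 and 401 CPM at 24 h (a log2 fold change of -0.93 ± 0.05, adjusted p = 3.9e-17) and Atp6v0d2 from 325, 278 and 325 to 93.99, 119 and 123 CPM (a log2 fold change of -1.47 ± 0.14, adjusted p = 6.6e-08). The osteoclast markers moved in both directions beside it. Dcstamp, Itgb3, Mmp9 and Ocstamp had 41.9, 19.1, 4.44 and 2.09 CPM without and 0.226, 5.79, 0.270 and 0.241 CPM with dexamethasone, while Acp5 had 4.82 and 28.8 CPM. The summed dendritic cell markers stood at 122 to 172 and 18.99 to 23.4 CPM, and the part of such cells was not tested. At 4 h Atp6v0d2 was not called (-0.05 ± 0.15, adjusted p = 0.84). Among the autophagy genes, those of the machinery that were called rose except 1 at each time, and both receptors fell. Wipi1 rose from 16.3, 13.9 and 17.7 to 31.9, 30.2 and 29.1 CPM at 4 h (a log2 fold change of 0.93 ± 0.09, adjusted p = 2.7e-11) and from 15.2, 15.5 and 15.6 to 32.2, 27.3 and 28.8 CPM at 24 h (a log2 fold change of 0.93 ± 0.09, adjusted p = 2.2e-11). Ulk1 rose from 32.7 ± 3.16 to 45.7 ± 1.62 CPM at 4 h (0.49 ± 0.07, adjusted p = 5.9e-07) and from 55.3 ± 4.00 to 89.7 ± 0.529 CPM at 24 h (0.70 ± 0.07, adjusted p = 5.5e-11). Map1lc3b, which codes for the LC3 protein coupled to autophagosome membranes, stood at 121, 119.7 and 124 and 155, 166 and 151 CPM at 4 h (0.37 ± 0.05, adjusted p = 1.9e-07) and was higher by 0.20 at 24 h. Sqstm1 fell by 0.57 and 0.24, and Optn fell by 0.75 and 0.72.

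Of the genes higher with dexamethasone, 10 were shared by the 2 times (58.8% of those at 4 h and 66.7% of those at 24 h, against 58.5% and 47.2% over all tested genes). Of those lower also 10 were shared (66.7% and 52.6%, against 59.2% and 52.9%). The dexamethasone effect itself differed between the times for 20 of the 48, with 5 higher and 15 lower at 24 h, against 13.8% and 16.8% of all tested genes. Hexa, Gusb, Npc2 and Atg5 were called in opposite directions. The call of Gusb at 24 h (-0.11 ± 0.04, adjusted p = 0.043) was lost without untreated library 1 or 2 or dexamethasone library 1 or 2 (adjusted p up to 0.14), that of Hexa at 24 h without dexamethasone library 3, that of Npc2 at 4 h without dexamethasone library 1, and that of Atg5 at 4 h without untreated or dexamethasone library 1.

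The question nearest to the study's aim is what dexamethasone changed in cells that also had LPS. These comparisons use the same LPS libraries as those of LPS against untreated cells, so the fold changes of the 2 are not independent and only each comparison's own values are given. Dexamethasone lowered Ctsc, Sqstm1, Lipa, Gla and Mitf under LPS at both times and raised Wipi1, Ulk1, Tfeb and Ctsl at both. Of the 48 genes 9 were higher, 20 lower and 19 not called at 4 h, against 23.9% and 25.4% of all tested genes, and 15 were higher, 18 lower and 15 not called at 24 h, against 21% and 22.6%. The medians were -0.04 and 0.00, and 0.00 at both times over all genes. Library-size scaling shifts the comparison at 4 h by 0.22, leaves the 9 rises called and turns the sign of the falls of Ctss, Ctsz and Hexa. It ends the falls of Mitf, Ctsb, Lgmn, Ctsa, Tpp1, Gaa, Man2b1, Grn and Atp6v1a. That gives 24 higher and 8 lower genes in all, against 5974 and 2365 of all tested genes.

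Ctsc stood at 3161, 3038 and 3139.9 CPM with LPS and 877, 979 and 973 CPM with both agents at 4 h (a log2 fold change of -1.72 ± 0.07, adjusted p = 1.5e-19). At 24 h it stood at 937, 1056 and 1003 and 195, 209 and 202 CPM (a log2 fold change of -2.30 ± 0.07, adjusted p = 1.6e-22). At 4 h the libraries with both agents were still above all untreated ones, and at 24 h they were below all of them. Sqstm1 was at 601, 539.7 and 569.6 CPM with both agents against 1124, 1173 and 978 with LPS at 4 h (a log2 fold change of -0.94 ± 0.06, adjusted p = 2.7e-14), and at 258, 251 and 263 against 823, 682 and 660.1 CPM at 24 h (a log2 fold change of -1.49 ± 0.07, adjusted p = 1.7e-19). The Sqstm1 libraries with both agents lay below all untreated ones at 24 h. At 4 h they lay above them with TMM scaling and below them by library size only (432 to 494 against 496 to 506 CPM). Optn was at 65.1, 70.2 and 65.3 against 123, 126 and 125 CPM at 4 h (a log2 fold change of -0.90 ± 0.07, adjusted p = 6.3e-13). At 24 h Optn was called higher with both agents (0.29 ± 0.09, adjusted p = 0.01), a call that was lost without LPS library 1 (adjusted p = 0.161) or library 3 of both agents (adjusted p = 0.0611).

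Wipi1 had the largest rise among the 48 genes at both times, from 6.59, 7.76 and 7.44 to 17.6, 19.3 and 21.7 CPM at 4 h (a log2 fold change of 1.43 ± 0.11, adjusted p = 5.5e-14) and from 27.2, 27.5 and 26.6 to 79.97, 71.2 and 77.2 CPM at 24 h (a log2 fold change of 1.49 ± 0.08, adjusted p = 1.3e-17). The libraries with both agents at 24 h were above all other libraries for this gene. Ulk1 rose from 12.1, 14.8 and 12.6 to 26.5, 25.9 and 22.6 CPM at 4 h (a log2 fold change of 0.93 ± 0.09, adjusted p = 2.9e-11) and was at 0.25 on the log2 scale at 24 h. The lipidation genes Atg7 and Map1lc3b and the scaffold gene Becn1 were not called at either time. Gabarapl1, a relative of LC3, was at 50.6, 46.8 and 47.8 against 90.7, 86.3 and 81.3 CPM at 24 h (a log2 fold change of -0.83 ± 0.07, adjusted p = 1.9e-12).

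Of the transcription factors, Tfeb stood at 11.3, 6.66 and 10.3 CPM with both agents at 4 h (a log2 fold change of 0.73 ± 0.20, adjusted p = 0.0049) and 36.97, 40.6 and 40.9 CPM at 24 h (a log2 fold change of 0.39 ± 0.13, adjusted p = 0.021). The 4 h libraries overlapped those with LPS alone and lay far below untreated ones. The 24 h call was lost without any 1 of the 3 LPS libraries or without library 2 or 3 of both agents (adjusted p = 0.0516 to 0.0634). Mitf stood at 66.04, 60.4 and 58.3 against 134, 124 and 118 CPM at 24 h (a log2 fold change of -1.03 ± 0.06, adjusted p = 3.8e-16) and Tfe3 at 92.2, 98.8 and 100.3 against 172, 175 and 155 CPM (a log2 fold change of -0.79 ± 0.06, adjusted p = 1.4e-14), the lowest of the 8 groups for Tfe3. At 4 h Tfe3 was not called (0.00 ± 0.05, adjusted p = 0.98), and the difference between the times was -0.79 ± 0.08 (adjusted p = 1.5e-10).

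Of the hydrolases at 24 h, Gusb, the beta-glucuronidase, Sgsh, Man2b1 and Manba were the most raised after Wipi1. Sgsh stood at 16.8, 18.1 and 19.1 CPM with LPS and 35.98, 38.5 and 39.6 CPM with both agents (a log2 fold change of 1.08 ± 0.09, adjusted p = 5.2e-13), still below all untreated libraries of 24 h. At 4 h it was at 2.03, 2.60 and 1.44 CPM with both agents, not called against LPS (0.00 ± 0.21, adjusted p = 1), and the effects at the 2 times differed by 1.08 ± 0.23 (adjusted p = 1.8e-04). Gusb went from 364, 350.3 and 355 to 652, 650.0 and 641 CPM (a log2 fold change of 0.86 ± 0.04, adjusted p = 3.4e-18). Gla, by contrast, was lower at both times, at 57.97, 52.3 and 49.3 against 111, 102 and 96.5 CPM at 24 h (a log2 fold change of -0.96 ± 0.07, adjusted p = 2.4e-14). Ctsk stood at 1.99, 1.97 and 1.61 against 8.08, 6.98 and 6.55 CPM at 24 h (a log2 fold change of -1.96 ± 0.17, adjusted p = 5.2e-12). Of the other osteoclast markers, Mmp9 had 0.848 CPM with both agents against 12.8 with LPS and Calcr 0.0695 against 0.380. Acp5 had 323 against 74.9 CPM and Itgb3 37.5 against 1.30 CPM, so the list did not move in 1 direction. Ctss, the protease that trims the invariant chain of MHC class II, went from 3234, 3324 and 3088 to 2128, 2282 and 2093 CPM (a log2 fold change of -0.57 ± 0.06, adjusted p = 3.1e-09).

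Lipa was lowered by each agent and was lowest with both. At 4 h it stood at 269, 300.4 and 242 CPM with both agents (-1.13 ± 0.08, adjusted p = 5.3e-13, against LPS), and at 24 h at 292, 281 and 271 CPM (-0.60 ± 0.08, adjusted p = 1.6e-07). The dexamethasone effect was smaller in size with LPS than without it at both times, by 0.65 ± 0.11 at 4 h (adjusted p = 1.7e-05) and 0.80 ± 0.11 at 24 h (adjusted p = 5.5e-07) on the log2 scale. Atp6v0d2 was not called under LPS at either time, with 2.46, 3.83 and 2.96 CPM with both agents at 24 h.

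**Figure D5:**
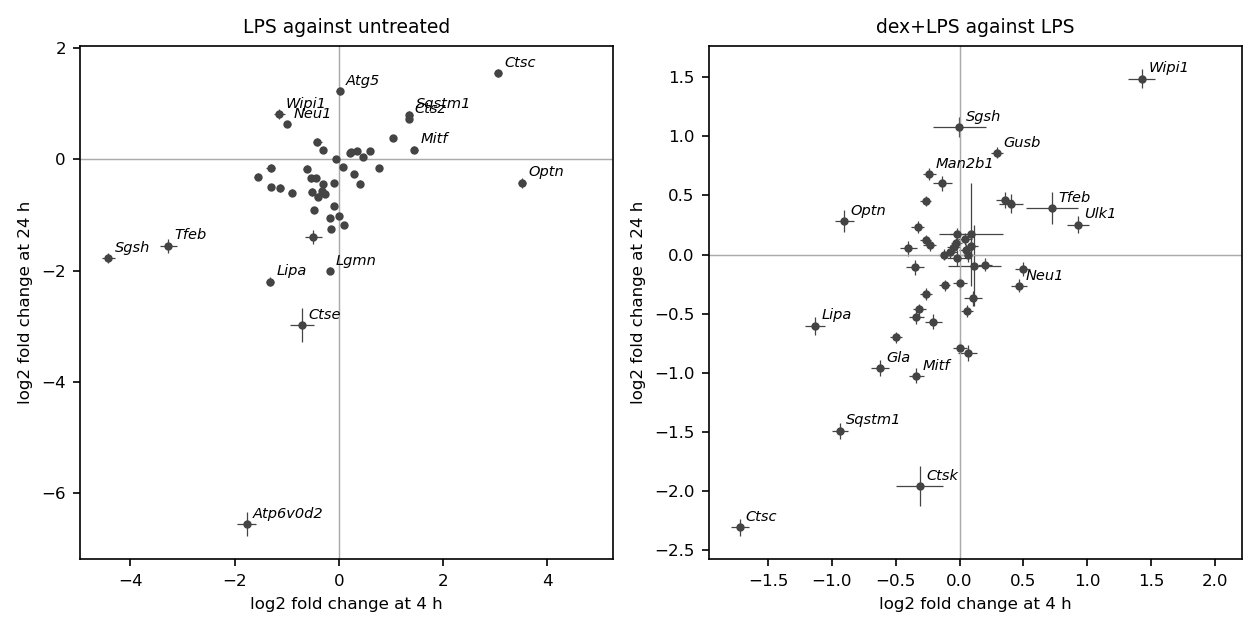
Log2 fold change at 4 h (x axis) against that at 24 h (y axis) for each of the 48 genes, with standard errors as bars: LPS against untreated cells on the left, dexamethasone plus LPS against LPS on the right. Optn lies at 3.52 and -0.42 and Wipi1 at -1.14 and 0.81 on the left; on the right Wipi1 lies at the upper end at both times and Ctsc at the lower end. Under library-size scaling all points on the left move by -0.77 along x and -0.20 along y, which carries Tfe3, Lamp1, Ctsh and Atp6v1h below 0 on both axes.

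Of the genes higher with dexamethasone under LPS, 6 were called at both times (Tfeb, Ctsl, Gusb, Smpd1, Ulk1 and Wipi1), which is 66.7% of the list of 4 h and 40% of that of 24 h, against 38.7% and 44% over all tested genes. By library size 9 were higher at both times, out of 24 at 4 h and 16 at 24 h. That is 37.5% and 56.2% of the lists, near the 35.3% and 60.7% over all tested genes. Of those lower 11 were called at both, 55% and 61.1% of the lists, against 47% and 52.8%. By library size 5 were lower at both, namely Ctsc, Gla, Npc2, Lipa and Sqstm1, out of 8 at 4 h and 18 at 24 h. That is 62.5% and 27.8% of the lists, against 49.6% and 38.6% over all tested genes. Lamp2, Ctsa, Neu1, Man2b1, Grn and Optn were called in opposite directions. The difference between the times was called for 29 genes, 13 higher and 16 lower at 24 h, against 19% and 19.8% of all tested genes. Man2b1 had one of the larger ones, with 565 ± 17.3 against 666 ± 51.4 CPM at 4 h and 620.1 ± 9.02 against 388 ± 13.8 CPM at 24 h (difference 0.91 ± 0.07, adjusted p = 5.9e-13).

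Whether the dexamethasone effect differed with LPS was tested at each time. At 4 h it was higher with LPS than without for 9 genes and lower for 22, against 20.8% and 17.9% of all tested genes. Library-size scaling, which adds 0.23, gives 16 and 6, against 5279 and 1566 of all tested genes. At 24 h it was higher for 14 and lower for 17, against 20.5% and 17.7%. Ctsc had the most negative difference at both times (-1.47 ± 0.10 and -1.94 ± 0.10). For Tfeb at 24 h dexamethasone gave -0.81 without and 0.39 with LPS, a difference of 1.21 ± 0.18 (adjusted p = 1.2e-05). Psap and Lgmn rose with dexamethasone alone at 24 h and fell with it under LPS, with differences of -0.82 ± 0.07 and -0.77 ± 0.08. Wipi1 rose in both settings, and by more with LPS (0.50 ± 0.14 at 4 h and 0.56 ± 0.12 at 24 h).

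Most of the 48 genes also differed between the 2 untreated groups. At 24 h 35 were higher than at 4 h, 2 lower and 11 not called, against 30.6% and 30.4% of all tested genes, with a median of 0.42 over the 48 and 0.01 over all genes. Atp6v0d2 stood at 46.5, 49.3 and 40.8 CPM at 4 h and 325, 278 and 325 CPM at 24 h (a log2 fold change of 2.76 ± 0.15, adjusted p = 1.1e-11), Ctsk at 5.78, 4.84 and 4.10 and 20.2, 18.9 and 18.1 CPM (a log2 fold change of 1.94 ± 0.13, adjusted p = 2.8e-15), and Psap at 5245, 5186 and 5300 and 13117, 13424 and 13545 CPM (a log2 fold change of 1.35 ± 0.05, adjusted p = 9.5e-23). The summed osteoclast markers stood at 88.98 to 105 CPM at 4 h and 116 to 139 CPM at 24 h, and the summed dendritic cell markers at 23.8 to 34.95 and 122 to 172 CPM. Gabarapl1, whose exons share 28.3% of their bases with another gene, was higher by 1.33 on the log2 scale. Only Ctsl (-0.92 ± 0.07, adjusted p = 4.8e-14) and Atp6v1h (-0.22 ± 0.05, adjusted p = 3.0e-04) were called lower. The treated groups of each time are therefore compared with untreated cells of the same time throughout.

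Other genes of these pathways, from lists that exclude the 48, are given for comparison. Of 29 other genes of the autophagy core, LPS raised 10 and lowered 15 at 4 h (3 and 23 by library size), with Ulk2, a relative of Ulk1, at 25.1 ± 3.60 against 79.3 ± 3.18 CPM (a log2 fold change of -1.65 ± 0.08, adjusted p = 4.5e-20). Atg9a, the lipid scramblase of the autophagosome, was higher, at 70.8 ± 0.758 against 27.7 ± 3.16 CPM (a log2 fold change of 1.35 ± 0.07, adjusted p = 5.1e-20). Dexamethasone alone raised 13 of the 29 and lowered 3 at 4 h, and raised 19 and lowered 2 at 24 h (22 and 2 by library size). Uvrag, a partner of Becn1 in vesicle traffic, stood at 119 ± 4.92 against 58.4 ± 2.71 CPM at 4 h (a log2 fold change of 1.02 ± 0.07, adjusted p = 1.1e-14). Under LPS dexamethasone raised 17 and lowered 3 at 4 h, and raised 9 and lowered 5 at 24 h, or 24 and 1, and 12 and 3, by library size. With TMM scaling the background percentages of each comparison are those given above. By library size 2434 of the 14985 tested genes were higher and 9779 lower with LPS at 4 h, and 3079 and 6279 at 24 h. For dexamethasone alone at 24 h the numbers were 3736 and 3651. For dexamethasone plus LPS against LPS they were 5974 and 2365 at 4 h, and 3476 and 3040 at 24 h.

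Of 13 tested further subunits and partners of the proton pump, LPS raised 9 and lowered 2 at 4 h, a balance that turned to 2 and 11 by library size, and raised 2 and lowered 5 at 24 h (2 and 11). Atp6v0a1, a form of the a subunit, fell at 24 h from 589 ± 57.6 to 40.7 ± 2.42 CPM (a log2 fold change of -3.85 ± 0.10, adjusted p = 2.4e-21), and Tcirg1, the a3 form, rose at 4 h from 419.7 ± 11.2 to 1226 ± 34.2 CPM (a log2 fold change of 1.55 ± 0.06, adjusted p = 5.1e-24). Of 22 genes of TFEB family control and nutrient sensing 8 were higher and 11 lower with LPS at 4 h (1 and 20 by library size). Tfec, the remaining family member, rose from 8.41 ± 0.470 to 275 ± 39.6 CPM (a log2 fold change of 5.03 ± 0.16, adjusted p = 1.2e-16), so that LPS raised Tfec and Mitf and lowered Tfeb. Flcn, folliculin, which acts on the Rag GTPases that hold these factors at the lysosome, stood at 19.3 ± 0.549 against 90.9 ± 3.26 CPM (a log2 fold change of -2.23 ± 0.06, adjusted p = 1.4e-27). Of 24 other hydrolases and activators 8 were higher and 14 lower with LPS at 4 h and 6 and 15 at 24 h. Of 20 other membrane proteins 7 were higher and 11 lower at 4 h, and 4 and 13 at 24 h. Of 16 sorting and fusion genes the counts were 5 and 6, then 4 and 8, and of 12 other autophagy receptors 3 and 7, then 4 and 4. By library size these 4 lists had 2 and 22, 2 and 16, 1 and 15, and 2 and 9 at 4 h.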

How the data were processed

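RNA-seq was analysed from 24 libraries of mouse bone marrow-derived macrophages, 3 in each of 8 groups, grouped by the labels. The values are whole-number read-pair counts per gene as deposited. Per the file headers the authors counted with featureCounts 2.0.0, on exons by gene and without strand, against GENCODE M29, and pairs mapped to several places or shared by several genes were not counted. The deposited gene length in bases, also in the file, was used for CPM per kb. The submitters' processing notes name STAR, GRCm38 and mm10, with no aligner version. The coordinates in the table fit GRCm39 and not GRCm38 (Actb starts at 142888870 in the table and at 142903115 in GRCm38), so gene positions are given as GRCm39 and promoters, which came from RefSeq, as GRCm38.p6. Symbols came from GENCODE M21, which matched 52081 of the 55357 genes.

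From the counts, edgeR 4.0.16 (R 4.3.3, limma 3.58.1) was run with TMM factors (0.679 to 1.18), the default filter on low counts, which left 14985 genes, and 1 mean per group over all 24 libraries (16 residual degrees of freedom, common biological coefficient of variation 6.29%). The quasi-likelihood test was two-sided, with Benjamini-Hochberg adjustment over the 14985 genes in each of 12 comparisons and a threshold of 0.05, and every adjusted p is of this kind. Standard errors are the log2 fold change divided by the square root of the F statistic. The procedure was tested on simulated data. Alternatives were RLE size factors, no scaling beyond library size, no filter, a mean of at least 5 CPM, DESeq2 1.42.0, a fit of only the groups compared, a replicate block and leaving out each library. Lists of marker and pathway genes were described by counts and summed levels and had no test as lists. Values per library are given for 18 genes chosen for their roles and for up to 5 rises and 5 falls per comparison with a mean of at least 5 CPM and groups that do not overlap. Of the other pathway lists up to 2 rises and 2 falls per comparison were open to naming. The 48 genes, the lists and the rules were chosen with earlier results of these data known.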

Additional observations from a re-analysis of the deposited data

Results flagged for a closer look

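The LPS effect differed between 4 h and 24 h for 41 of the 48 genes in edgeR's quasi-likelihood test of the difference. For 8 of them both effects were called, in opposite directions. Opposite calls, here and for the effects below, were not counted over all tested genes. The log2 differences, 24 h minus 4 h, were -0.917 for Lamp2, -0.842 for Ctss, -0.564 for Grn and -3.93 for Optn, which were higher with LPS at 4 h and lower at 24 h. They were 1.62 for Neu1, 0.476 for Asah1, 0.722 for Smpd1 and 1.95 for Wipi1, which went the other way. Scaled by library size only, Lamp2, Ctss and Grn were no longer higher at 4 h and Asah1 no longer higher at 24 h, and the difference itself of Grn turned to 0.0058.

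The dexamethasone effect under LPS differed between the times for 29 genes. Lamp2 (0.56), Ctsa (0.72), Man2b1 (0.913), Grn (0.389) and Optn (1.19) were lowered at 4 h and raised at 24 h, and Neu1 (-0.731) the reverse. By library size the falls of Ctsa, Man2b1 and Grn at 4 h were not called. The effect of dexamethasone alone differed between the times for 20 genes, among which Hexa (-0.292), Gusb (-0.545) and Npc2 (-0.416) were raised at 4 h and lowered at 24 h and Atg5 (0.437) the reverse.

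At 4 h the dexamethasone effect differed with and without LPS for 31 genes. Ctss (-0.414), Lgmn (-0.528), Hexa (-0.271), Npc2 (-0.644) and Grn (-0.542) were raised by dexamethasone alone and lowered by it under LPS, and Neu1 (0.642) the reverse. By library size the falls of Ctss and Hexa under LPS changed sign and those of Lgmn and Grn were not called. At 24 h the count was also 31. There Tfeb (1.21), Gusb (0.968) and Optn (1.00) were lowered by dexamethasone alone and raised under LPS, and Lgmn (-0.771), Psap (-0.815) and Atg5 (-0.612) the reverse.

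Some of these opposite calls rest on 1 library. With LPS at 24 h Lamp2 lost its call without untreated library 2 (adjusted p = 0.0707) or LPS library 1 (0.0655). With dexamethasone alone at 4 h Ctss lost it without dexamethasone library 1 (0.0966), Lgmn without untreated library 2 (0.0933) or dexamethasone library 1 (0.0523), and Neu1 without untreated library 1 (0.135) or dexamethasone library 2 (0.0791). With both agents against LPS at 4 h Ctss lost it without library 2 of LPS (0.0819) or of both agents (0.115), and Hexa without LPS library 1 or 2 or library 2 or 3 of both agents (0.0657 to 0.167). At 24 h Grn lost it without LPS library 1 (0.0767) or library 2 of both agents (0.0965).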

How the results depend on the processing

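Scaling by library size only was the sole alternative that reversed any of the 894 results for single genes (50 reversed, 50 lost the call, 44 gained one). A reversed result changed sign and was called in either fit. Log2 fold changes of the reversed results under that scaling were as follows. LPS against untreated cells at 4 h gave Tfe3 -0.43, Lamp1 -0.55, Lamp2 -0.0035, Ctsb -0.67, Ctsh -0.53, Ctss -0.36, Man2b1 -0.77, Grn -0.47, Atp6v0d1 -0.69, Atp6v1h -0.17, Becn1 -0.30, Atg5 -0.75, Gnptab -0.14 and Rheb -0.13. At 24 h it gave Tfe3 -0.055, Mitf -0.023, Lamp1 -0.082, Ctsh -0.069, Glb1 -0.20, Asah1 -0.026, Atp6v1h -0.056 and Becn1 -0.16. Dexamethasone plus LPS against LPS at 4 h gave Lamp1 0.20, Ctss 0.017, Ctsz 0.11, Hexa 0.10, Asah1 0.20, Atp6v1b2 0.15, Becn1 0.17 and Atg7 0.20. The LPS effect at 24 h against 4 h gave Tfe3 0.37, Lamp1 0.47, Ctsh 0.46, Ctsl 0.50, Ctsa 0.24, Ctsd 0.23, Tpp1 0.44, Gusb 0.13, Grn 0.0058, Atp6v0d1 0.36, Atp6v1a 0.31, Atp6v1h 0.11, Becn1 0.14, Gabarapl1 0.31, Sqstm1 0.022 and Ncoa4 0.17. The dexamethasone effect with against without LPS at 4 h gave Ctsz 0.22, Ctsa 0.044, Glb1 0.030 and Becn1 0.17. Counts of the 48 genes higher and lower became 6 and 41 for LPS at 4 h, 24 and 8 for dexamethasone plus LPS at 4 h, 26 and 14 for the LPS effect between the times and 16 and 6 for dexamethasone with against without LPS at 4 h. Over all 14985 tested genes they became 2434 and 9779, 5974 and 2365, 7692 and 2573, and 5279 and 1566. With LPS at 24 h 7 were higher, and 6 were lower in untreated cells at 24 h than at 4 h, against 3079 and 5075 of all tested genes. The construction of this alternative, a constant added to every log2 fold change of a comparison, gives these moves.

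The count of genes with a higher dexamethasone effect alone at 24 h (5) rested on few calls. It was 12 by library size, 10 with a mean of at least 5 CPM, 8 with DESeq2 and 3 with only the groups compared, and 3 to 6 when 1 library was left out, the lowest without untreated library 3 of 24 h, dexamethasone library 3 of 4 h or dexamethasone library 3 of 24 h. Of the single-gene results 6 to 22 lost the call under each of the other alternatives apart from the replicate block, and leaving out 1 library in turn ended 216 calls over all such fits and gave 43 new ones.

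The replicate block used the replicate numbers of the labels as pairs across groups. It gave 14 higher and 27 lower genes for LPS at 4 h and changed 2 of the 894 calls. Same-numbered libraries did not deviate together (correlations -0.053 to 0.051 over 84 pairs), so the numbers were not taken as pairs.

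Genes under a few CPM, such as Ctse and Ctsk in LPS-treated cells, rest on few counts. With 3 libraries a group the spread of any 1 group is poorly known.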
